A study of Homo sapiens with 12 samples.

Results

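The genes described here are 33 of the longest protein-coding genes of the human genome, each occupying about 1 megabase (Mb) of a chromosome, among the 61163 genes of the count tables. They were listed by symbol for their length, with earlier results of these data known. The list leaves out 95 other protein-coding genes that span at least 0.8 Mb. All 33 listed genes were found in the tables. In the RefSeq annotation of GRCh38.p14 their spans, from the first to the last annotated base, ran from 0.643 Mb for LSAMP to 2.47 Mb for RBFOX1, with a median of 1.44 Mb, and 31 of the 33 spanned at least 0.8 Mb. The other two were LSAMP and GRID1, the latter with 0.767 Mb.

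The RNA came from HEK293T, an established human embryonic kidney cell line that expresses a viral large T antigen. HEK WT cells, which are unmodified, were compared with HEK UL1 KO cells, in which CRISPR-Cas9 and a pair of guides against neighbouring exons had been used to disrupt HNRNPUL1, the gene of the RNA-binding protein hnRNP UL1. Cells of each genotype were separated into a nucleolar (NO) and a cytoplasmic-nuclear (CN) fraction, with 3 libraries for each genotype and fraction and 12 in all. Total RNA was sequenced without removal of rRNA. No treatment or time point was part of the design, and whether the HEK UL1 KO line was grown from a single clone is not given in the sources used here, so that effects of the knockout and of the line cannot be told apart.

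Almost the whole length of such a gene is intron. Introns are transcribed with the exons and removed in the nucleus, so a library of total RNA can hold unspliced precursor and excised intron as well as mature mRNA, and for a very long gene the mature mRNA is a small fraction of the length. Many of these genes serve neurons: they encode adhesion molecules, receptors and synaptic scaffolds, and several lie at common fragile sites, where DNA breaks under replication stress.

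The exons of the 33 genes, merged over the transcripts of GENCODE release 44, summed to between 3.53 kb in GPC5 and 34.0 kb in MAGI2. Exons were therefore between 0.24% of the span, in GPC5, and 2.37%, in MAGI2, with a median of 0.859%. The GC content of the gene bodies lay between 33.7% in CSMD3 and 45.1% in GRID1.

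The libraries held between 37141666 and 83019079 counts in NO and between 54349399 and 104040073 in CN. Genes and pseudogenes of rRNA took between 55.29 and 65.08% of the counts in NO and between 73.93 and 78.71% in CN. HNRNPUL1, the targeted gene, had 12.3 ± 1.55 counts per 1000000 counts of the library (CPM; SD, n = 3) in HEK WT NO and 4.58 ± 0.761 in HEK UL1 KO NO. With libraries scaled by edgeR's trimmed mean of M values (TMM) its log2 fold change was -2.0 ± 0.32 (SE; edgeR's quasi-likelihood test, adjusted p = 0.00649), and with total counts -1.42 (adjusted p = 0.258). In CN its levels were 15.9 ± 2.11 and 5.17 ± 0.123 CPM, and its log2 fold change on the TMM scale was -1.83 ± 0.08 (edgeR's quasi-likelihood test, adjusted p = 2.12e-07). Of 6 markers of HEK293T, VIM had between 431 and 2993 counts in a library and INA between 7 and 256. The list moved in both directions with the knockout: in CN, INA had 189 to 256 counts in HEK WT and 7 to 9 in HEK UL1 KO, whereas KRT8 had 37 to 49 and 167 to 187. Its summed level was 32.6 to 41.9 CPM in HEK WT NO, 24.2 to 25.7 in HEK UL1 KO NO, 35.3 to 41.3 in HEK WT CN and 21.9 to 22.8 in HEK UL1 KO CN. Of 6 neuronal markers, the short gene SLC17A7 had between 5 and 19 counts, whereas the long genes RBFOX3 and SYT1, of 576 and 588 kb, had between 97 and 2714. The summed level of the neuronal list was 24.4 to 65.8 CPM in HEK WT NO and 49.9 to 61.7 in HEK UL1 KO NO, against 21.5 to 30 in HEK WT CN and 30.5 to 31.5 in HEK UL1 KO CN. None of the 6 neuronal markers was at 0 in any library. Of 6 markers of blood, liver, pancreas and connective tissue, INS had at most 2 counts in a library, and the list summed to 1.63 to 4.35 CPM in HEK WT NO, 3.32 to 4.22 in HEK UL1 KO NO, 0.5 to 0.872 in HEK WT CN and 1.15 to 1.47 in HEK UL1 KO CN. The part of such RNA in the results below was not tested. In bulk samples of this kind, fewer cells with an RNA and less of that RNA per cell cannot be told apart.

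Among genes chosen for low counts per span, counts followed the span of a gene more closely than the length of its exons. The sources used here do not state whether reads were counted over exons or over whole gene bodies, so the question was put to the values. RBFOX3 and GRIN1 have similar summed exon lengths, 10.1 and 11 kb, and spans of 576 and 29.6 kb, and they had 489 and 26 counts in HEK WT NO 1. Log counts were fitted on log span and log exon length. For the NO libraries, 3689 protein-coding genes of at least 10 kb were taken from the lowest 30% by count per span in HEK WT CN. The slopes were 0.91 to 1.00 for span and 0.06 to 0.11 for exon length. For the CN libraries, 4089 genes were taken by count per span in HEK WT NO. Their slopes were 0.99 to 1.04 for span and 0.13 to 0.21 for exon length. A slope near 1 means that the count grew in proportion to the span. Because the genes were chosen by counts divided by span, such a slope is partly given by the choice. The fit therefore cannot settle how reads were counted. Within the 33 genes, rho between count and span was 0.121 to 0.502 in the NO libraries and -0.0491 to 0.0755 in the CN libraries, and rho between count and exon length was 0.0795 to 0.246 and 0.00234 to 0.0538. Levels are given below as a density, the CPM per Mb of span, which removes the span and the depth. The density uses the total counts, whereas the fold changes and their tests use TMM, so that the ratio of a pair of densities is not exactly the fitted fold change.

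Every one of the 33 genes had counts in every library. The lowest count was 82, for CDH13 in HEK WT CN 3, with an exact 95% Poisson interval of 65.2 to 102, and the highest was 15953. This interval covers counting error only. Counts on the 33 genes came to 1003.8, 1026.4 and 2193.6 CPM in HEK WT NO 1, 2 and 3, and 2096.8, 1501.4 and 1945.6 in HEK UL1 KO NO. In CN they came to 1291.4, 1424.3 and 985.2 CPM in HEK WT and 1081.1, 1130.6 and 1080.6 in HEK UL1 KO. Out of counts outside rRNA genes, the group means were 3469 CPM in HEK WT NO against 5066 in HEK WT CN. They were 4746 in HEK UL1 KO NO against 4298 in HEK UL1 KO CN. In HEK WT the order of the means thus turned, from 1408 ± 681 (SD, n = 3) in NO against 1234 ± 225 in CN per total count. Only HEK WT NO 3 lay above HEK WT CN 1 and 2 per total count, and HEK WT NO 1 and 2 lay below them. Per total count, HEK WT NO 3 lay with the knockout libraries of its fraction, and HEK WT CN 3 lay below the other libraries of CN.

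HEK WT NO 3 stood apart from HEK WT NO 1 and 2 in all 33 genes. Its density was above those of the other two HEK WT NO libraries in 33 of 33, by between 1.38 times the mean of the pair in FHIT and 5.11 times in RBFOX1, with a median of 2.45 times. It reached the lowest HEK UL1 KO NO library in 32 of the 33 genes and exceeded all of the HEK UL1 KO NO libraries in 15. Its level of HNRNPUL1 was 12.9 CPM, against 10.5 and 13.4 in HEK WT NO 1 and 2 and 4.09 to 5.46 in HEK UL1 KO NO. Its TMM factor was 1.40, against 0.69 and 0.622 in HEK WT NO 1 and 2 and 1.09 to 1.34 in HEK UL1 KO NO. HEK WT CN 3 was lower than HEK WT CN 1 and 2 in 32 of 33 genes. Its density was between 0.236 times the mean of that pair, in OPCML, and 1.01 times, in LRP1B, with a median of 0.559 times. Its TMM factor was 0.76, against 1.01 to 1.09 in the other CN libraries. The reason for the position of either library was not tested, and the comparisons that use them are given with and without them.

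**Figure D1:**
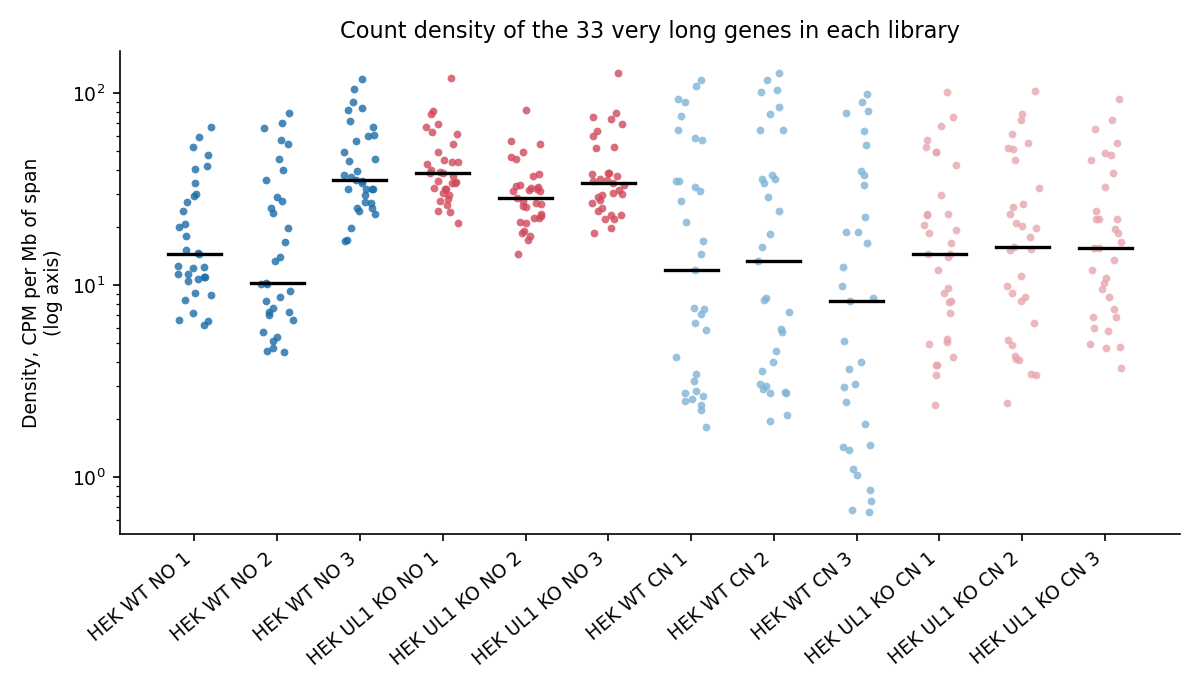
Density of the 33 very long genes in each of the 12 libraries, in CPM per Mb of gene span on a log axis. Each point is a gene and each black line the median of a library. The lowest gene of each NO library lies between 4.46 and 21.1, and the lowest of each CN library between 0.657 and 3.71, while the highest genes of the libraries of both fractions lie between 66.9 and 128.

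Per total count, the lowest densities were higher in the nucleolar libraries. The gene with the lowest density in HEK WT NO 1, 2 and 3 had 6.21, 4.46 and 17, and in HEK UL1 KO NO 21.1, 14.6 and 18.8. In HEK WT CN the lowest gene had 1.83, 1.96 and 0.657, and in HEK UL1 KO CN 2.38, 2.44 and 3.71. The lowest gene of every NO library was therefore denser per total count than the lowest gene of every CN library, although the groups HEK WT NO and HEK UL1 KO NO overlapped. Out of counts outside rRNA genes this order did not hold throughout, with 11.4 to 38.1 in HEK WT NO, 40.5 to 55.6 in HEK UL1 KO NO, 3.09 to 7.52 in HEK WT CN and 9.25 to 14.7 in HEK UL1 KO CN.

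Per total count, the highest densities of the fractions overlapped. Out of counts outside rRNA genes they were 191 to 317 in NO and 371 to 489 in CN. GPC6, a glypican that carries heparan sulfate at the cell surface, was the highest gene in 11 of the libraries, all but HEK WT CN 3, where ROBO1 was highest. GPC6 had 66.9, 78.7 and 118 in HEK WT NO, 120, 81.7 and 128 in HEK UL1 KO NO, 117, 128 and 90.0 in HEK WT CN and 101, 103 and 93.6 in HEK UL1 KO CN. The ratio of the highest to the lowest gene was 6.93 to 17.7 in HEK WT NO, 5.6 to 6.81 in HEK UL1 KO NO, 63.9 to 150 in HEK WT CN and 25.2 to 42.3 in HEK UL1 KO CN. The 33 genes thus lay closest together in HEK UL1 KO NO and farthest apart in HEK WT CN.

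In HEK WT CN the order of the genes ran from GPC6, ROBO1 and AUTS2 at the top, with mean densities of 112, 108 and 92.1, to CDH13, CSMD1 and CTNNA2 at the bottom, with 1.98, 1.73 and 1.48. Neighbours in this order overlapped in their libraries in 31 of 32 pairs. In HEK WT NO and HEK UL1 KO NO they overlapped in 32 and 31 of 32 pairs, and in HEK UL1 KO CN, where libraries lay closest together, in 17. Neighbouring ranks were thus mostly within the spread between libraries, while the top and the bottom of the list did not overlap in CN.

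The first comparison asked whether the nucleolar fraction of HEK WT cells held more reads of very long genes than the CN fraction. The largest rises in NO were those of CDH13, RBFOX1, CTNNA2 and OPCML, and the largest falls those of AUTS2, ROBO1, IMMP2L and LRP1B. Of the 33 genes, 16 were higher in NO and 9 were lower, and 8 did not pass an adjusted p of 0.05 in edgeR's quasi-likelihood test. Over all 29340 genes tested, 31.9% were higher and 20.9% lower. The median log2 fold change was 0.32 over the 33 genes and 0.02 over all genes. The order of these medians turned under other settings. They were 0.03 and 0.80 with DESeq2, 0.03 and 0.79 with no filter, and 0.03 and 0.26 with all 12 libraries in 1 fit. Whether the 33 genes as a list lay above the bulk of genes thus depended on the tool and the filter. Libraries were also scaled to their total counts in place of TMM, which moved the median of all genes to 0.37. On that scale 15 of the 33 genes were higher and 0 were lower, against 6387 and 606 of all 29340 genes. The 9 falls kept their sign there, at -0.55 to -0.22, but were not called. Their calls are thus relative to the bulk of genes, and their number depended on the fit. On the TMM scale 4 of the 33 genes were lower with replicate number as a block and 4 without HEK WT NO 1. Without HEK WT CN 1 and without HEK WT CN 2 there were 5 each. Of all genes tested, 3858, 5155, 4443 and 4788 were lower in these fits, against 6139 in the first. Without HEK WT NO 3 PCDH15 lost its call (adjusted p = 0.0777 in edgeR's quasi-likelihood test), while CCSER1 and NRXN3 became lower, at -0.36 and -0.43. Without HEK WT CN 3 PCDH15, FHIT and LRP1B lost theirs (adjusted p = 0.129, 0.0541 and 0.077).

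CDH13, a cadherin held at the membrane by a lipid anchor (chr16:82626969-83800640), had densities of 11, 7.65 and 44.2 in HEK WT NO and 2.50, 2.76 and 0.672 in HEK WT CN. RBFOX1, a splicing factor of neurons and muscle (chr16:5239721-7713340), had 10.5, 7.24 and 45.3 in NO and 2.66, 3.00 and 1.10 in CN. In each gene the fractions did not overlap, with HEK WT NO 3 far above the rest. The log2 fold change of NO against CN was 2.94 ± 0.50 (SE; edgeR's quasi-likelihood test, adjusted p = 0.00396) for CDH13 and 2.72 ± 0.46 (adjusted p = 0.00396) for RBFOX1. Without HEK WT NO 3 these values were 2.25 and 1.97, with adjusted p = 0.00336 and 0.00188 in edgeR's quasi-likelihood test.

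CTNNA2, the neuronal alpha-catenin that links cadherins to actin (chr2:79185377-80648780), had 7.12, 5.35 and 26.8 in HEK WT NO and 1.83, 1.96 and 0.657 in HEK WT CN. OPCML, an adhesion molecule of the IgLON family (chr11:132414981-133532501), had 11.5, 7.29 and 37.6 in NO and 2.75, 3.58 and 0.748 in CN. Neither overlapped between the fractions, and their log2 fold changes were 2.68 ± 0.42 (edgeR's quasi-likelihood test, adjusted p = 0.00387) and 2.56 ± 0.47 (adjusted p = 0.00423). Without HEK WT NO 3 these became 2.07 and 2.01.

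At the other end, 4 genes of high density had fewer counts in NO relative to the bulk of genes. AUTS2, a nuclear regulator of transcription in the developing brain (chr7:69598475-70793506), had 47.7, 57.3 and 83.4 in HEK WT NO and 93.4, 104 and 78.8 in HEK WT CN. ROBO1, a receptor for the guidance cue Slit (chr3:78597239-79767998), had 59.0, 69.9 and 105 in NO and 109, 117 and 98.7 in CN. These densities, which use total counts, overlapped between the fractions. On the TMM scale they did not, and the log2 fold changes were -0.90 ± 0.19 for AUTS2 (edgeR's quasi-likelihood test, adjusted p = 0.00517) and -0.84 ± 0.20 for ROBO1 (adjusted p = 0.00740). Scaled to total counts, they were -0.55 and -0.47, with adjusted p = 0.128 and 0.183 in edgeR's quasi-likelihood test.

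IMMP2L, a peptidase of the inner mitochondrial membrane (chr7:110662644-111562492), had densities of 29.1, 35.5 and 49.3 in HEK WT NO and 57.4, 64.4 and 37.6 in HEK WT CN. LRP1B, an endocytic receptor of the LDL receptor family (chr2:140231423-142131016), had 41.9, 54.1 and 89.8 in NO and 75.8, 84.4 and 80.7 in CN. Their fractions overlapped on this scale as well, and their log2 fold changes were -0.80 ± 0.17 (edgeR's quasi-likelihood test, adjusted p = 0.00570) and -0.78 ± 0.23 (adjusted p = 0.0179). The call of LRP1B was lost without HEK WT CN 3, with a log2 fold change of -0.67 and an adjusted p of 0.077 in edgeR's quasi-likelihood test.

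The role groups are small and were not tested as groups, and 31.9% of all genes tested were higher and 20.9% lower. By role, 4 of the 5 cadherins and catenins were higher in NO of HEK WT, CDH12 being the exception, as were both CUB and sushi proteins, CSMD1 and CSMD3. Of these, PCDH15, at 0.78, was not called without HEK WT NO 3, without HEK WT CN 3 or with total counts (adjusted p = 0.0859, edgeR's quasi-likelihood test). Of the 8 genes of cell surface adhesion and guidance, 4 were higher and 2, ROBO1 and ROBO2, were lower. Of the 6 receptors, ligands and coreceptors, NRG1 was higher, LRP1B, ERBB4 and GPC6 were lower, and 2 were not called. Of the 4 scaffolds and membrane partners, DLG2, DPP10 and SGCZ were higher and MAGI2 was not called. Among 5 intracellular enzymes and related proteins, 0 were higher, and FHIT, WWOX and IMMP2L were lower. FHIT hydrolyses diadenosine triphosphate, and WWOX is an oxidoreductase with WW domains.

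HEK UL1 KO cells answered the same question with libraries that the HEK WT comparison did not use. In them 15 of the 33 genes were higher in NO and 8 were lower, against 40.7% higher and 35.6% lower of 34468 genes tested. The median log2 fold change was 0.23 over the 33 genes and 0.03 over all genes, but 0.07 and 0.51 with DESeq2. DESeq2 called 11 of the 33 higher and 9 lower, against 12029 and 12507 of 44765 genes. With total counts, which moved the median of all genes to 0.79, 24 were higher and 0 lower. Of all 34468 genes, 18471 were higher and 825 lower on that scale. On the TMM scale the fold changes of both genotypes had the same sign in 30 of 33 genes (25 with total counts), with r = 0.943 and rho = 0.926 across the 33 genes, which are not independent replicates.

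CDH13 had densities of 37.1, 30.9 and 23.2 in HEK UL1 KO NO and 3.82, 3.39 and 4.91 in HEK UL1 KO CN. RBFOX1 had 38.6, 27.6 and 22.2 in NO and 3.85, 4.12 and 4.76 in CN. The fractions stood well apart in each gene, with log2 fold changes of 2.17 ± 0.19 (edgeR's quasi-likelihood test, adjusted p = 2.1e-05) and 2.04 ± 0.19 (adjusted p = 2.4e-05). CTNNA2 and OPCML followed with 2.08 ± 0.18 and 1.81 ± 0.17, and DPP10 with 2.02 ± 0.17. AUTS2, at -0.85 ± 0.18, was the lowest, and its direction did not turn with total counts, at -0.09, although that value did not pass the test (edgeR's quasi-likelihood test, adjusted p = 0.733). ROBO1 and IMMP2L, at -0.64 ± 0.19 and -0.67 ± 0.19, turned to 0.12 and 0.09 with total counts. LRP1B, at -0.41 ± 0.20, and SGCZ, at 0.12 ± 0.16, did not pass the test in HEK UL1 KO.

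With TMM and the filterByExpr filter, no gene of the densest class in CN of HEK WT was called higher in NO of HEK UL1 KO. This depended on the filter. With TMM and at least 10 counts in every library, GRID1 of that class was called higher (0.38, edgeR's quasi-likelihood test, adjusted p = 0.0327). Under that filter 22 of the 33 genes were higher and 1 lower, against 7943 and 5220 of 23719 genes. The class counts below are those with filterByExpr. Across the 33 genes, the density in HEK WT CN and the fold change of NO against CN in HEK UL1 KO were related with r = -0.885 and rho = -0.902. They share no library, but that fold change is taken against the level in HEK UL1 KO CN. Genes dense in HEK WT CN were mostly dense in HEK UL1 KO CN as well. GPC6 had means of 112 and 98.9 there, and CTNNA2 1.48 and 2.84. A negative relation is therefore in part given, and it is a description over genes and not over samples. Of 12 genes with a mean density under 5 in HEK WT CN (CDH13, CNTN5, CNTNAP2, CSMD1, CSMD3, CTNNA2, DPP10, EYS, OPCML, PTPRD, RBFOX1 and SGCZ), 11 were higher in NO of HEK UL1 KO, with a median of 1.68 on the log2 scale. Of 8 genes between 5 and 20 (CDH12, CTNNA3, DLG2, LSAMP, MACROD2, MAGI2, NRG1 and PCDH15), 4 were higher and 0 lower, with a median of 0.38. Of 13 genes of at least 20 (AUTS2, CCSER1, ERBB4, FHIT, GPC5, GPC6, GRID1, IMMP2L, LRP1B, NRXN3, ROBO1, ROBO2 and WWOX), 0 were higher and 8 lower, with a median of -0.64. With total counts, 12 of 12, 8 of 8 and 4 of 13 were higher and 0 were lower, with medians of 2.42, 1.14 and 0.12, the 4 being CCSER1, GRID1, GPC5 and NRXN3.

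**Figure D2:**
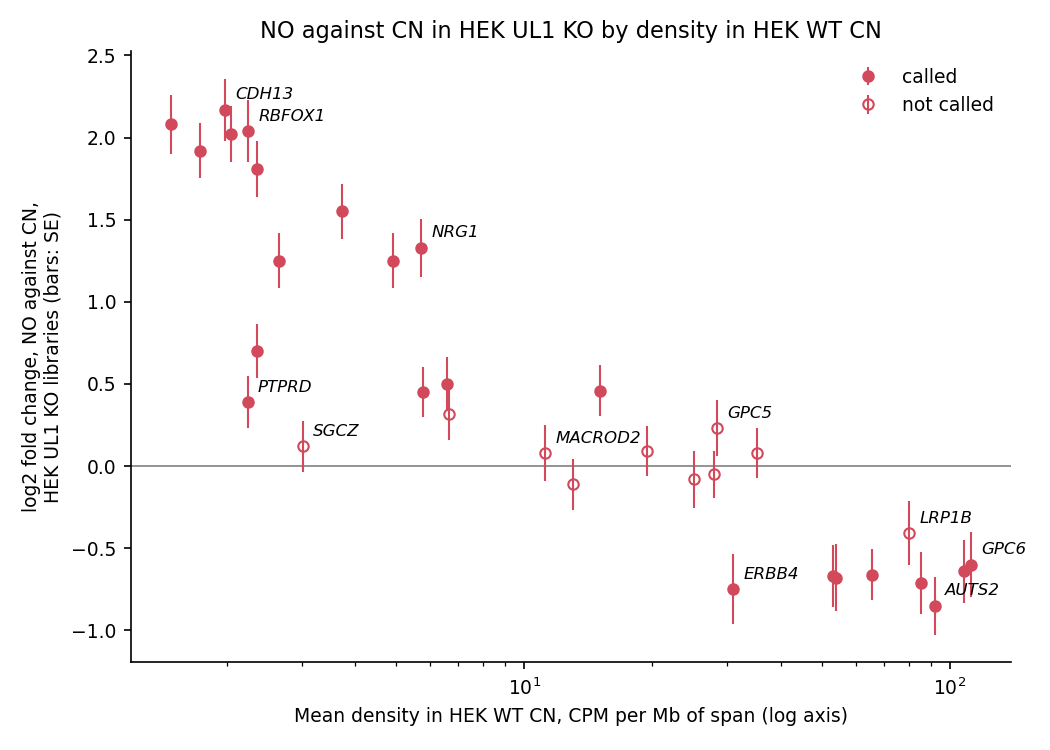
Fitted log2 fold change of NO against CN in the HEK UL1 KO libraries (vertical axis, bars are the SE, n = 3 against 3) by mean density in HEK WT CN in CPM per Mb of span (log axis), with 1 point for each of the 33 genes. Filled points passed the test and open points did not. The points fall from 2.17 for CDH13 to -0.85 for AUTS2, and PTPRD and SGCZ lie below the other genes of similar density.

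In HEK WT, where the classes and the comparison share the CN libraries, 12 of 12 genes of the lowest class were higher in NO, 4 of 8 of the middle class, and 0 of 13 of the highest class, of which 9 were lower. Since a low value in these CN libraries would lower the class and raise the fold change at once, these counts are given as a description.

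The second comparison asked how the knockout changed very long genes in the CN fraction. The largest rise in HEK UL1 KO was that of SGCZ, 4.26-fold, followed by CSMD3 and PTPRD, and the largest fall was that of LRP1B, 3.98-fold, followed by ROBO1. Of the 33 genes, 18 were higher and 11 were lower in edgeR's quasi-likelihood test, and 4 were not called. Over all 27234 genes tested, 15.6% were higher and 22.3% lower. With total counts, which moved the median of all genes to 0.24, 13 of the 33 were higher and 3, LRP1B, ROBO1 and NRXN3, were lower. Of all 27234 genes, 3697 were higher and 1724 lower on that scale. The rises of CTNNA2, CDH13, OPCML, EYS and PCDH15 did not pass with total counts, although their log2 fold changes were larger there, at 0.94, 1.04, 1.11, 0.62 and 0.60. The falls of AUTS2, FHIT, WWOX, IMMP2L, CCSER1, GPC6, GRID1 and MAGI2 did not pass either, at -0.39 to -0.17. Without HEK WT CN 3, the library that stood apart in this fraction, 18 were higher and 13 lower, with CDH12 and ROBO2 added. Of all 28619 genes then tested, 4931 were higher and 5370 lower.

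SGCZ, a sarcoglycan of the complex that anchors dystrophin at the membrane, had densities of 3.16, 4.0 and 1.89 in HEK WT CN and 14.6, 15.3 and 13.6 in HEK UL1 KO CN. CSMD3, a large transmembrane protein of CUB and sushi domains, had 2.82, 2.88 and 1.39 in HEK WT CN and 9.08, 9.15 and 9.53 in HEK UL1 KO CN. PTPRD, a receptor-type tyrosine phosphatase that organises synapses (chr9:8314246-10613002), had 2.54, 2.74 and 1.43 in HEK WT CN and 8.18, 8.25 and 8.72 in HEK UL1 KO CN. In all of these the lowest knockout library was more than any HEK WT library by a wide margin. Their log2 fold changes were 2.09 ± 0.13 for SGCZ, 1.80 ± 0.14 for CSMD3 and 1.73 ± 0.11 for PTPRD (edgeR's quasi-likelihood test, adjusted p = 2.56e-06, 7.16e-06 and 2.96e-06). Without HEK WT CN 3 they were 2.00, 1.68 and 1.64.

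DPP10, an auxiliary subunit of Kv4 potassium channels without peptidase activity (chr2:114442641-115845780), had 2.38, 2.73 and 1.03 in HEK WT CN and 4.21, 4.09 and 5.76 in HEK UL1 KO CN. Its genotypes did not overlap, and its log2 fold change was 1.03 ± 0.21 (edgeR's quasi-likelihood test, adjusted p = 0.00311), or 0.84 without HEK WT CN 3.

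LRP1B had the largest fall. Its densities were 75.8, 84.4 and 80.7 in HEK WT CN and 23.5, 25.4 and 22.2 in HEK UL1 KO CN, and its log2 fold change was -1.99 ± 0.13 (edgeR's quasi-likelihood test, adjusted p = 2.96e-06). ROBO1 had 109, 117 and 98.7 in HEK WT CN and 57.3, 61.0 and 55.4 in HEK UL1 KO CN, a log2 fold change of -1.12 ± 0.09 (adjusted p = 1.18e-05). In each gene every HEK WT library was above every knockout library. With total counts the falls were -1.76 and -0.90 and passed the test as well, with adjusted p = 3.72e-06 and 0.00088 in edgeR's quasi-likelihood test.

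**Figure D3:**
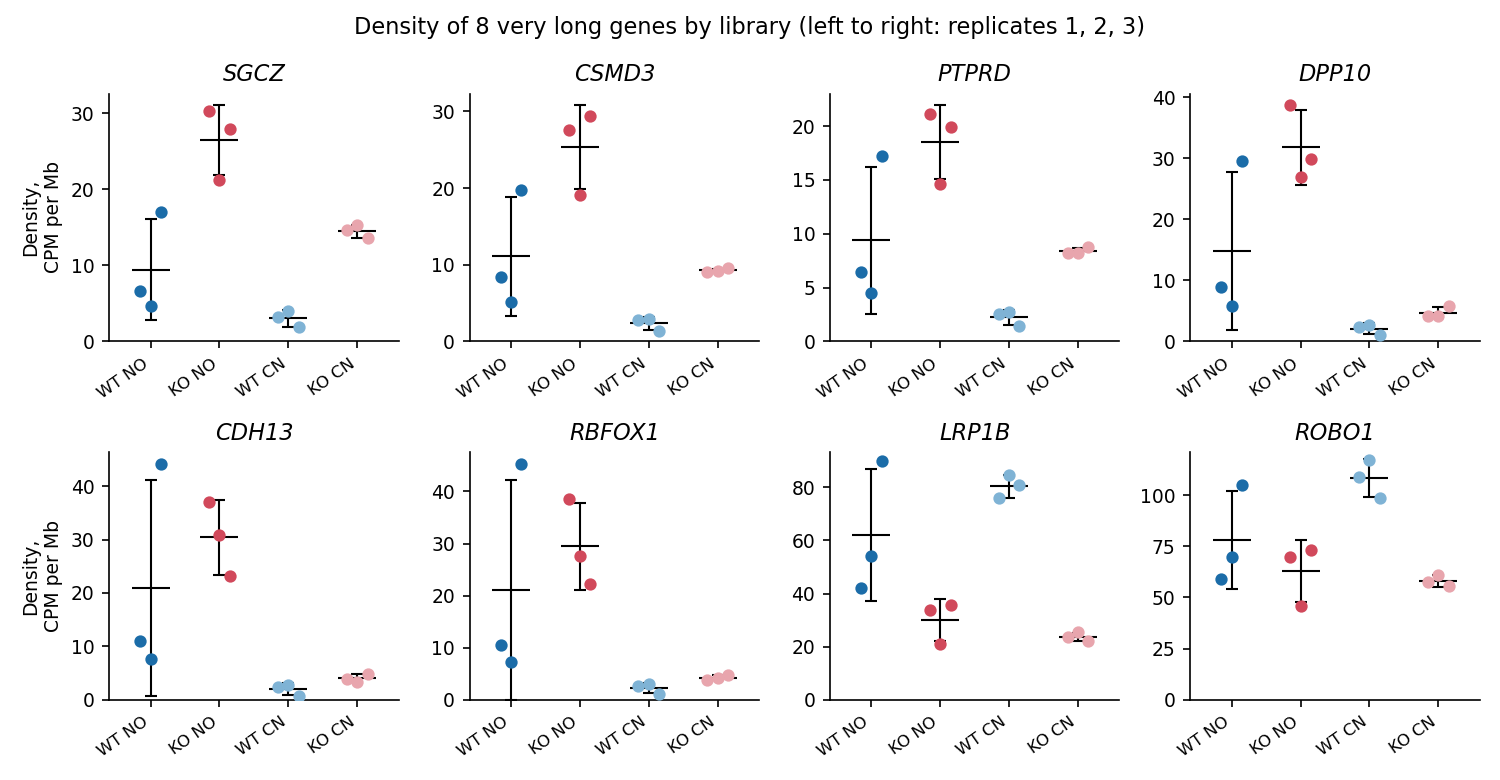
Density of 8 very long genes in CPM per Mb of span, with 1 point for each library and the mean and SD (n = 3) of each group in black. SGCZ, CSMD3, PTPRD and DPP10 are higher in HEK UL1 KO than in HEK WT in CN, LRP1B and ROBO1 are lower, and CDH13 and RBFOX1 are highest in NO. In HEK WT NO the third library lies above the others in every panel.

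The rest of the cell surface adhesion and guidance genes were split. CNTNAP2, a neurexin-like protein that clusters potassium channels on axons, had a log2 fold change of 0.74 ± 0.15, the contactin CNTN5 0.91 ± 0.19, and the IgLON proteins LSAMP and OPCML 0.72 ± 0.12 and 0.97 ± 0.32, all called. NRXN3, a neurexin of the presynaptic membrane, fell by 0.95 on the log2 scale. ROBO2, at -0.25 ± 0.09, was not called (edgeR's quasi-likelihood test, adjusted p = 0.0579). In this role group 5 of 8 genes were higher and 2 were lower, against 15.6% and 22.3% of all genes tested. Neither this nor the other role groups were tested as groups.

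Of the cadherins and catenins, 4 of 5 were higher: CTNNA2 by 0.78 ± 0.26, CTNNA3, the alpha-catenin of heart and testis, by 0.86 ± 0.17, CDH13 by 0.89 ± 0.31 and PCDH15, a protocadherin of the tip links of hair cells, by 0.43 ± 0.15 on the log2 scale. The remaining member, the cadherin CDH12, had a log2 fold change of -0.15 ± 0.11 and was not called. With total counts CTNNA2, CDH13 and PCDH15 did not pass the test, at 0.94, 1.04 and 0.60 (edgeR's quasi-likelihood test, adjusted p = 0.0554, 0.0611 and 0.0875).

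Among receptors, ligands and coreceptors, ERBB4, a receptor tyrosine kinase for neuregulins, was higher, with a log2 fold change of 0.46 ± 0.09. Its ligand NRG1 was not called, at 0.08 ± 0.10 (edgeR's quasi-likelihood test, adjusted p = 0.562). The glypican GPC6, at -0.37 ± 0.08, and the glutamate receptor of the delta class GRID1, at -0.42 ± 0.10, were lower with LRP1B but did not pass with total counts, while the glypican GPC5 had -0.02 ± 0.14 and was not called.

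Enzymes and other intracellular proteins fell in 4 of 5 cases. FHIT, WWOX, IMMP2L and CCSER1, a coiled-coil protein, had log2 fold changes of -0.50 ± 0.09, -0.59 ± 0.08, -0.52 ± 0.10 and -0.56 ± 0.07. With total counts 0 of these 4 passed, at -0.31, -0.39, -0.34 and -0.36 (edgeR's quasi-likelihood test, adjusted p = 0.207, 0.0897, 0.2 and 0.132). MACROD2, a hydrolase that removes ADP-ribose from proteins, rose by 0.61 ± 0.08. Of the nuclear regulators, AUTS2 fell by 0.49 on the log2 scale and RBFOX1 rose by 0.76 ± 0.20.

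Among the scaffolds, DLG2, which holds receptors and channels at the postsynaptic membrane, rose by 1.01 ± 0.13 and MAGI2, a scaffold of cell junctions, fell by 0.36 on the log2 scale. CSMD1, the second of the CUB and sushi proteins, rose by 0.99 ± 0.21. EYS, an extracellular protein needed by photoreceptors, rose by 0.44 ± 0.13. With total counts, AUTS2, MAGI2 and EYS did not pass the test, at -0.29, -0.18 and 0.62 (edgeR's quasi-likelihood test, adjusted p = 0.175, 0.539 and 0.0531).

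The third comparison asked how the knockout changed the same genes in the nucleolar fraction. Here 0 of 33 genes were called higher or lower in edgeR's quasi-likelihood test, against 0.365% higher and 0.574% lower of 34836 genes tested. Of the 33, 7 had an unadjusted p under 0.05, namely SGCZ, LRP1B, CSMD3, CSMD1, DPP10, ROBO1 and PTPRD, and DESeq2 called 2. The median log2 fold change was 0.35, or 0.64 with total counts, which moved the median of all genes to 0.40.

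SGCZ had densities of 6.59, 4.68 and 17 in HEK WT NO and 30.3, 21.3 and 27.9 in HEK UL1 KO NO. LRP1B had 41.9, 54.1 and 89.8 in HEK WT NO and 33.9, 21.0 and 35.5 in HEK UL1 KO NO. Neither gene overlapped between the genotypes, with opposite directions. The log2 fold changes were 1.18 ± 0.30 for SGCZ and -1.49 ± 0.37 for LRP1B, with adjusted p = 0.0692 and 0.0598 in edgeR's quasi-likelihood test. CSMD3 and PTPRD had 0.88 ± 0.31 and 0.69 ± 0.32, DPP10 0.88 ± 0.34 and ROBO1 -0.79 ± 0.36, with adjusted p between 0.179 and 0.296 in the same test.

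The result turned on HEK WT NO 3. Without it, 11 of the 33 genes were called, 9 higher and 2 lower. Of all 36336 genes then tested, 9133 were called in place of 327, 3587 higher and 5546 lower. The 9 were SGCZ (1.36), CSMD1 (1.31), DPP10 (1.25), CSMD3 (1.05), PTPRD (0.89), RBFOX1 (0.86), CDH13 (0.84), CTNNA2 (0.81) and OPCML (0.80), and the 2 were LRP1B (-1.57) and ROBO1 (-0.93), with values on the log2 scale and adjusted p between 0.00373 and 0.0442 in edgeR's quasi-likelihood test.

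**Figure D4:**
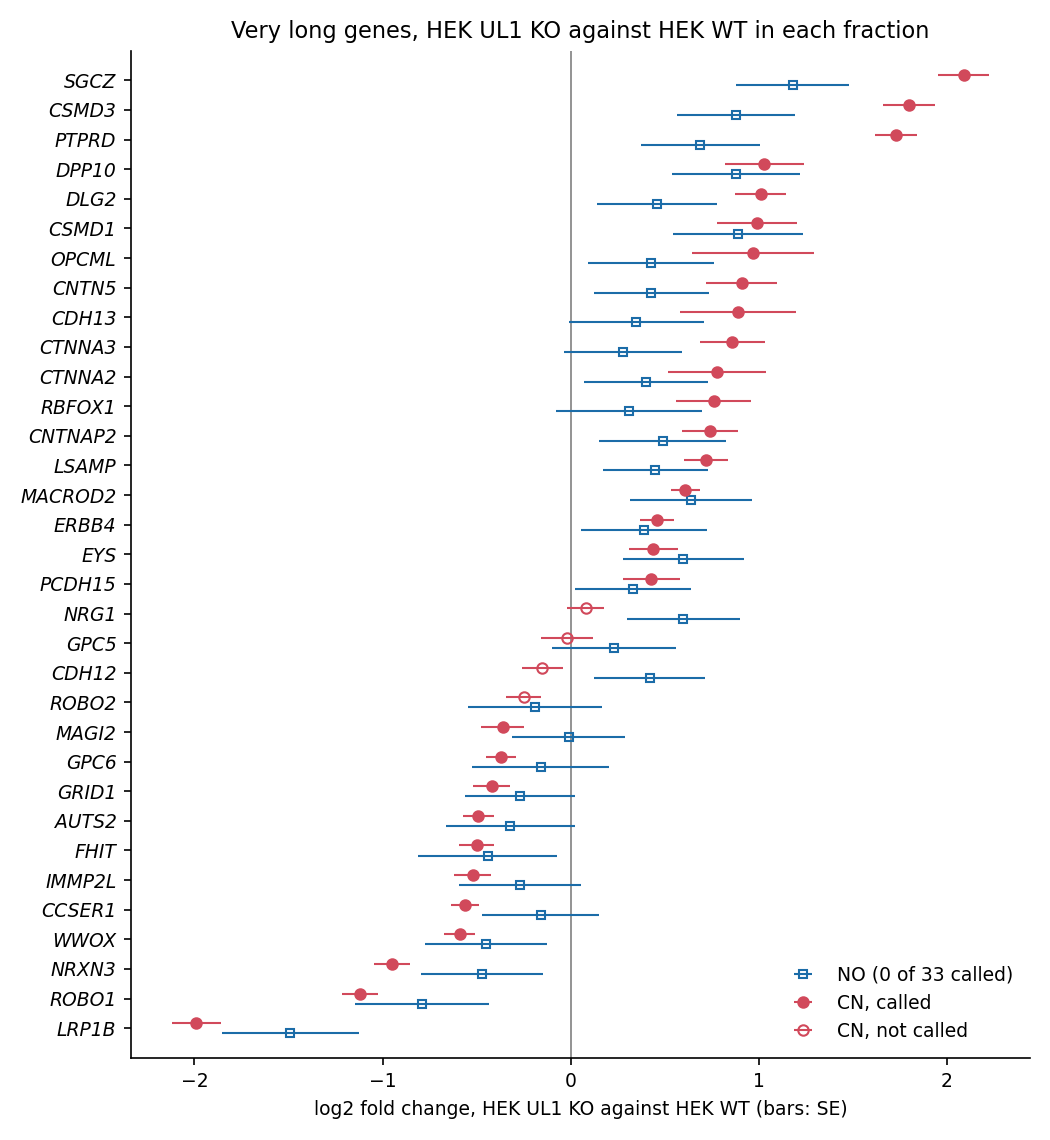
Fitted log2 fold change of HEK UL1 KO against HEK WT for the 33 very long genes in CN (circles, filled where called) and NO (squares, 0 called), with bars for the SE (n = 3 against 3). Genes are ordered by the value in CN, from 2.09 for SGCZ to -1.99 for LRP1B, and the squares have the same sign in 31 of the 33 genes, with wider bars.

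On the TMM scale the changes in NO had the same sign as those in CN in 31 of 33 genes, the exceptions being GPC5 and CDH12, and were smaller in 28. With total counts the signs were the same in 24 of 33. Across the 33 genes the fold changes of the fractions, which share no library, were related with r = 0.921 and rho = 0.873, as a description over genes. The difference between the fractions was tested as an interaction of genotype and fraction over all 12 libraries. None of the 33 genes passed (0 in edgeR's quasi-likelihood test and 0 with DESeq2), 6 had an unadjusted p under 0.05 in edgeR, and 0.114% of 37806 genes passed. For PTPRD the interaction was -0.91 ± 0.32 and for SGCZ -0.78 ± 0.31 on the log2 scale, with adjusted p = 1.0 for each of the 33 genes.

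In CN, the change with the knockout was related to the level in the nucleolar libraries, which the CN comparison did not use. Across the 33 genes, the log2 fold change in CN and the log density in HEK WT NO were related with r = -0.843 and rho = -0.844. That fold change is taken against HEK WT CN, and genes dense in HEK WT NO were mostly dense in HEK WT CN as well. A negative relation is therefore in part given here too. By the density in HEK WT CN, which the comparison does use, 12 of 12 genes under 5 rose, 5 of 8 between 5 and 20 rose and 1 fell, and 1 of 13 of at least 20 rose and 10 fell. With total counts these were 8 of 12, 4 of 8 with 0 falls, and 1 of 13 with 3 falls.

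Length was set beside the other genes of the tables. Of 126 protein-coding genes that span at least 800 kb, the median log2 fold change of NO against CN was 0.90 in HEK WT and 0.49 in HEK UL1 KO. It was -0.31 and -0.61 in 5179 genes under 10 kb, of which 2361 and 2906 passed the filter, -0.27 and -0.40 in 1930 genes of 100 to 200 kb, and 0.18 and 0.00 in 355 genes of 400 to 800 kb. In HEK UL1 KO against HEK WT the medians of the longest class were 0.21 in NO and 0.34 in CN, and those of the class under 10 kb were -0.19 and -0.05. These medians describe classes of genes on the TMM scale and were not tested.

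**Figure D5:**
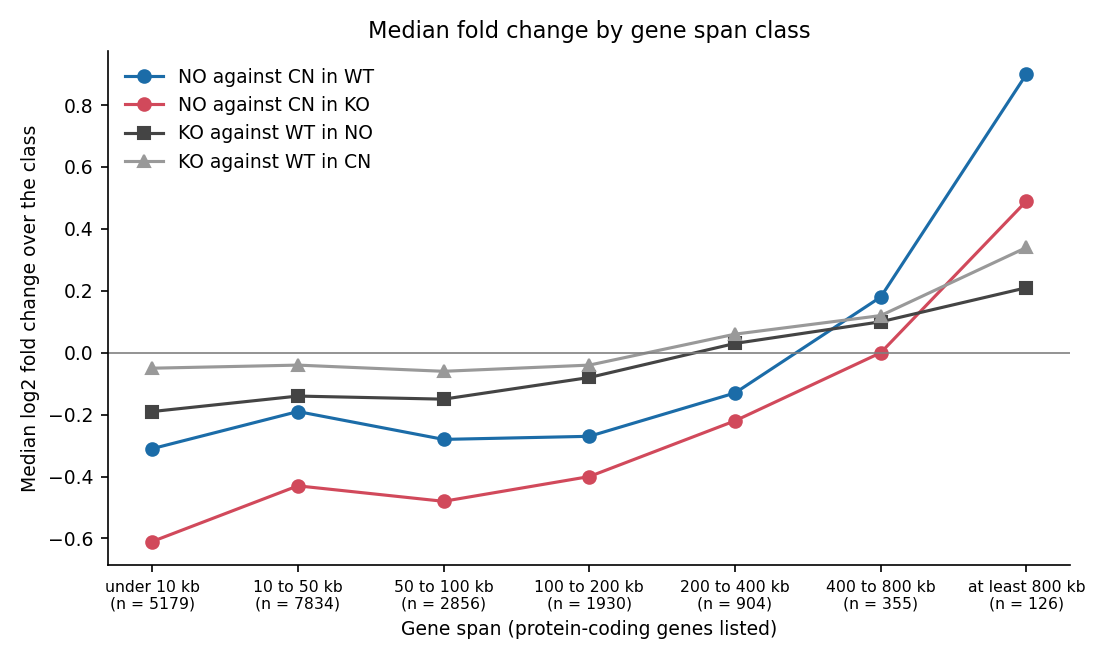
Median fitted log2 fold change (vertical axis) of protein-coding genes in 7 classes of gene span (horizontal axis, with the number of genes listed in each class), for NO against CN in each genotype and for HEK UL1 KO against HEK WT in each fraction. In all of the comparisons the class of at least 800 kb has the highest median, 0.90, 0.49, 0.21 and 0.34.

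The 95 other protein-coding genes of at least 0.8 Mb were set beside the 33. In HEK WT, 55 were higher in NO and 17 lower, with a median log2 fold change of 0.93 against 0.32 in the 33 genes, and in HEK UL1 KO 58 and 17, with 0.58 against 0.23. With the knockout, 37 were higher and 29 lower in CN, with a median of 0.30 against 0.44, and 1 was called in NO, lower. These differences between the lists were not tested. Their fold changes with the knockout in NO and CN were related with r = 0.891 over the 95 genes. The density in HEK WT CN and the fold change of NO against CN in HEK UL1 KO were related with rho = -0.823. As in the 33 genes, this negative relation is in part given by the comparison. Of 31 shorter paralogs and partners of the 33 genes, such as DLG1 beside DLG2 or CTNNA1 beside CTNNA2, 3 were higher and 11 lower in NO of HEK WT, and 1 and 15 in HEK UL1 KO. With the knockout, 5 of the paralogs were higher and 11 lower in CN, and 1 was called in NO, higher.

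The changes were weakly related to GC content. Across the 33 genes, rho between the fold changes and the GC content of the gene body was between -0.167 and 0.132. Between density and GC content it reached 0.457 in HEK UL1 KO NO 2 and 0.33 in HEK WT NO 3, and in the CN libraries it lay between -0.0892 and -0.0234. These relations are over genes and are given without a test.

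Also listed were 20 RNAs named after the 33 genes, antisense (AS) or intronic (IT) to them. Whether reads were counted by strand is not given in the sources used here, so reads of such an RNA and of its host cannot be told apart. GPC6-AS2, which spans 40 kb, had 23, 23 and 61 counts in HEK WT NO and 7, 17 and 6 in HEK WT CN. NRG1-IT1 had 31, 25 and 107 counts in NO and 17, 21 and 7 in CN. Both were higher in NO of HEK WT, each with a log2 fold change of 2.26 (edgeR's quasi-likelihood test, adjusted p = 0.00638 and 0.00775). There 5 of the 9 that could be tested were higher, against 31.9% of all genes tested. In HEK UL1 KO 12 of 15 were higher, against 40.7%. An RNA with few counts in CN could pass the filter on low counts through NO alone. This favoured RNAs high in NO among those tested, so these numbers are a description.

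MAGI2-AS3 was the exception, with 132, 131 and 137 counts in HEK WT NO and 393, 379 and 371 in HEK WT CN, against 170, 25 and 92 in HEK UL1 KO NO and 166, 153 and 106 in HEK UL1 KO CN. It was lower in NO than in CN in both genotypes, with log2 fold changes of -1.0 and -1.11, and lower in CN with the knockout, with -1.18 ± 0.11 (edgeR's quasi-likelihood test, adjusted p = 2.3e-05). MACROD2-AS1 was the only one of these RNAs called with the knockout in NO, of 14 tested. It had 5, 1 and 20 counts in HEK WT and 110, 28 and 39 in HEK UL1 KO. Its log2 fold change was 2.21 ± 0.49 (edgeR's quasi-likelihood test, adjusted p = 0.0411). It met the filter on low counts through the HEK UL1 KO NO libraries, so this call is a description.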

How the data were processed

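The deposited tables, 1 per fraction, hold unnormalized counts of reads per gene, as the authors made them. Per the paper's methods and the submitters' processing notes, reads were trimmed with cutadapt 3.7, aligned to GRCh38 with STAR 2.7.8 and counted with featureCounts; counting options, strand setting and annotation release are not given in the sources used here. All 12 columns were matched to samples by name, and 0 were left out.

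Counts were tested with edgeR 4.0.16 (R 4.3.3): filterByExpr (minimum count 10, minimum total 15), TMM, the quasi-likelihood F test and Benjamini-Hochberg adjustment over all genes tested, called under 0.05. Genotypes were compared within each fraction, fractions within each genotype, and the interaction over 12 libraries. DESeq2 1.42.0, other normalizations and filters and left-out libraries were alternatives. The tests were checked on simulated counts. Spans are from RefSeq (GRCh38.p14; 51140 of 61163 genes matched), exon lengths from GENCODE release 44 and GC from hg38. The fit on span and exon length used a pseudocount of 1. Its protein-coding genes were in the lowest 30% of density in HEK WT of the other fraction. The libraries are biological triplicates with no cultures named, so p-values measure the spread between these libraries. No pair of replicates agreed within sampling noise.

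The 33 genes, the lists and the tests were chosen with earlier results of these data known. All 33 are named. Values per library are given for members called in the knockout comparison in NO or in the interaction (0 in each), the 6 with the largest change in CN among those called with a mean of at least 20 counts, and the 4 highest and 4 lowest in NO against CN in HEK WT. GPC6, SGCZ and LRP1B in NO and the RNAs inside the genes were added after their values were seen.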

Additional observations from a re-analysis of the deposited data

How the results depend on the processing

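The number of the 33 genes called with the knockout in NO was 0, and it was 2 with DESeq2, 2 with no filter, 3 with all 12 libraries in 1 fit, and between 0 and 11 when each library was left out, the 11 being without HEK WT NO 3. In CN the number was 29, and it was 16 with total counts, 13 with all 12 libraries in 1 fit, and between 23 and 31 when each library was left out. For NO against CN it was 25 in HEK WT, 15 with total counts and between 19 and 26 when each library was left out, and in HEK UL1 KO it was 23, and between 18 and 25 when each library was left out. The directions in HEK UL1 KO were less stable than this number. The 15 higher and 8 lower became 22 and 1 with at least 10 counts in every library. They became 11 and 9 with DESeq2 and with no filter, and 11 and 7 with the replicate block. The interaction gave 0 under every alternative run. HNRNPUL1 in NO had a log2 fold change of -1.42 with total counts, which did not pass the test (edgeR, adjusted p = 0.258). Out of counts outside rRNA genes, the 33 genes held 3469 CPM in HEK WT NO, 4746 in HEK UL1 KO NO, 5066 in HEK WT CN and 4298 in HEK UL1 KO CN, in place of 1408, 1848, 1234 and 1097.

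Over the 33 genes, 4 comparisons and all alternatives, 1449 of 1716 log2 fold changes kept their direction and their side of the threshold, 134 lost and 48 gained the call, and 85 changed sign. Of these 85, 26 were with total counts. There, with the knockout in NO, AUTS2 (0.17), IMMP2L (0.23), FHIT (0.08), ROBO2 (0.30), CCSER1 (0.28), MAGI2 (0.41), GRID1 (0.12), GPC6 (0.32) and WWOX (0.03) turned, none of them called, and in CN GPC5 (0.15) and CDH12 (0.03). For NO against CN in HEK WT, CCSER1 (0.03), MAGI2 (0.25), GRID1 (0.34) and NRXN3 (0.21) turned. In HEK UL1 KO, LSAMP (0.65), CCSER1 (0.68) and GRID1 (0.70), which had not been called, turned and passed the test (edgeR, adjusted p = 0.00799, 0.00841 and 0.00289), and the called falls of ERBB4 (0.01), FHIT (0.04), ROBO2 (0.08), ROBO1 (0.12), IMMP2L (0.09), GPC6 (0.15) and WWOX (0.09) turned and were lost. LRP1B (0.35), not called on either scale, turned as well. Under the other alternatives, 59 values turned, of at most 0.38 on the log2 scale after the change, and 1 of them passed the test, GRID1 with at least 10 counts in every library (0.38, adjusted p = 0.0327). GPC5 in CN was also 0.06 with at least 10 counts in every library, 0.01 with the replicate block, and 0.05 and 0.11 without HEK WT CN 1 and 2, within a range of -0.14 to 0.11 when each library was left out. NRG1 in CN was -0.01 with all 12 libraries in 1 fit. For NO against CN in HEK UL1 KO, LRP1B was 0.02 with at least 10 counts in every library, and SGCZ was -0.05 with DESeq2, -0.05 with no filter, -0.04 without HEK UL1 KO NO 3 and -0.06 without HEK UL1 KO CN 3, within a range of -0.06 to 0.28 when each library was left out. Values after a change of sign are given for all 33 genes with total counts and in CN, and otherwise for the genes with values per library. The cause was not tested. The density outside rRNA genes was added after seeing the data.

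Whether libraries with the same replicate number were paired could not be settled from the counts. After subtraction of the group means, libraries that carry the same number were correlated across genes between -0.545 and -0.0444. A negative correlation does not show that the libraries were unpaired, so the numbers with the replicate block are given beside the others. With the replicate block, 0 genes were called with the knockout in NO, 25 in CN, 19 for NO against CN in HEK WT, 18 in HEK UL1 KO and 0 in the interaction. Counting error is small at these depths, and the spread between 3 libraries, above all HEK WT NO 3, limits what could be called in NO.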
